A study of Mus musculus with 2 samples.

Results

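The genes described here encode the receptors for glutamate and GABA, the main excitatory and inhibitory transmitters of the brain. They were taken from the gene lists of the deposited counts by symbol: Gria, Grik, Grid, Grin and Grm followed by a number, the GABA-A subunits Gabra, Gabrb, Gabrg, Gabrd, Gabre, Gabrp, Gabrq and Gabrr, and Gabbr1 and Gabbr2. The search found 49 symbols in each of 2 single-cell libraries, of 28001 listed genes in the septal explants and, for the telencephalic vesicle, 32286. Of these, Grid2ip (a scaffold protein) and Grin1os (a transcript opposite Grin1) are not receptors. The genes with at least 50 unique molecular identifiers (UMIs, each marking a captured transcript molecule) in the kept cells are described by value. Of these there are 20 in the septal explants and 41 in the vesicle, where 40 of them are receptors. The first library pooled explants around the septum, the medial wall of the rostral telencephalon, from 8 E11.5 embryos that carried PGKCre ; Rosa26YFP and 4 E12.5 embryos that carried Dbx1Cre ; Rosa26tdTomato. Each stage came from 2 litters. The second pooled whole telencephalic vesicles of 3 WT embryos from 2 litters, labelled E12. Both used C57BL/6J mice, and the labels give the genotype of both as wild type. In the explants the PGK promoter, active in all tissues, or the Dbx1 gene drives Cre, which switches on the fluorescent reporter of the Rosa26 locus. Each condition has 1 library of pooled embryos. Stage and genotype are therefore mixed within the septal library, no test across embryos was possible, and no p-value is given.

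Glutamate acts on ion channels of the AMPA (Gria), kainate (Grik) and NMDA (Grin) classes, built of several subunits, and on metabotropic receptors (Grm), which signal through G proteins. The delta subunits (Grid) belong to the same channel family but are known for binding cerebellins across the synapse. GABA opens chloride channels of the GABA-A class, typically built of alpha, beta and gamma subunits, and acts through the G-protein coupled GABA-B receptor, an obligate pair of Gabbr1 and Gabbr2. In the embryonic telencephalon, apical progenitors (APs) line the ventricle and divide, basal progenitors (BPs) are their committed offspring, and new neurons migrate outward. Both transmitters are known to act on progenitors and migrating neurons before synapses form.

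The 250 bases before the transcription start are printed for 5 of the genes, chosen after the search described here. These are 3 genes with more transcripts in neurons whose promoter matched the motif, and 2 with more in APs whose promoter did not. All come from RefSeq (GRCm38.p6) and read in the direction of the gene. Capitals mark the best match, with at most 2 mismatched letters, to CAGCACC and GGACAG set 2 bases apart. These are the core letters of the RE1 element, the binding sequence of the neuronal gene repressor REST. Both strands were searched. The match is on the opposite strand in Gria2 and Grin1 and on the same strand in Grik2, and no stretch of Gabra4 or Gabre came within 2 mismatches.
Gria2, chr3:80802836-80803085, minus strand, 1 mismatch: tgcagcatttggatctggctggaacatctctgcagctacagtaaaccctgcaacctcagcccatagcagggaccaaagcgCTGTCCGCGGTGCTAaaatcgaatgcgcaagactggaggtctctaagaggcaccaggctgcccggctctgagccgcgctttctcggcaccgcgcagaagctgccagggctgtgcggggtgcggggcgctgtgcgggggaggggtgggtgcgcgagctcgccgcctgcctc
Grin1, chr2:25319188-25319437, minus strand, 2 mismatches: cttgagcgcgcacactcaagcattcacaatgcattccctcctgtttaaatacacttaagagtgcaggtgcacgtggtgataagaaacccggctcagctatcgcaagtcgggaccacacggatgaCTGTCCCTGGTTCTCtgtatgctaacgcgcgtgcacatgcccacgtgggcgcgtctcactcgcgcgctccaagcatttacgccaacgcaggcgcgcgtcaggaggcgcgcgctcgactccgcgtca
Grik2, chr10:49788755-49789004, minus strand, 2 mismatches: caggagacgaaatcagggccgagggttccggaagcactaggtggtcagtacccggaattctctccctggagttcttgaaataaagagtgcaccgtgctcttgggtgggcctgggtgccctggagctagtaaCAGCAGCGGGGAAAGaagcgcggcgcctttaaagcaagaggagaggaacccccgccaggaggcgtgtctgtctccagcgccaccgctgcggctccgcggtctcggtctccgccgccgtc
Gabra4, chr5:71658309-71658558, minus strand: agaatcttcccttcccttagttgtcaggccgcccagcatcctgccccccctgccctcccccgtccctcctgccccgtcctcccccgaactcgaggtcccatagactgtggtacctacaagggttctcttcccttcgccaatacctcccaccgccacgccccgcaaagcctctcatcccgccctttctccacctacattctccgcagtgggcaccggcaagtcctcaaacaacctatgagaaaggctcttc
Gabre, chrX:72274722-72274971, minus strand: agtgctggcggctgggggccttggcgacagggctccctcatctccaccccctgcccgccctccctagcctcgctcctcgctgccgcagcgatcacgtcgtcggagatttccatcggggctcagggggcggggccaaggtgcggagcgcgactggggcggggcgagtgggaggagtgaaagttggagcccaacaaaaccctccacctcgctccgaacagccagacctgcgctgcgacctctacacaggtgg

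The promoter table held 34 of the 49 symbols, with 42 start sites, each covered from 250 bases before to 50 bases after the start. Of these 42, 1 had at most 1 mismatch (Gria2) and 4 had at most 2 (Gria2, Grin1, Grik2 and a second start of Gabrb1), which is 9.52%. The promoters of Gabbr1, Gria4, Grik4, Grm2 and Grm8, also higher in neurons of both libraries, had 3 to 5 mismatches, and Gabrb1 was not called in the vesicle. Among all 32851 mouse promoters of the same length, 1.92% had at most 2 mismatches and 0.186% at most 1. The receptor promoters had a median GC content of 60.2% against 52.7% over all promoters. These are descriptions of letters in a short window, and binding was not measured. Promoters of the other 15 symbols were not analysed here.

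After filters on mitochondrial reads and doublets, 5384 of 5827 barcodes were kept in the septal explants and 11758 of 14283 in the vesicle, with a median of 12868.5 and 9058.5 UMIs per cell. The libraries shared 1 barcode. Cells were clustered without the receptor genes, and clusters were named from marker lists, so that receptor levels played no part in forming the classes. The classes held 3329 APs and 870 neurons in the septal explants and 6920 APs and 1557 neurons in the vesicle. APs divided into septal-like, subpallial-like, pallial-like and hem-like (the hem is the signalling edge of the medial pallium), with ventral pallial (VP)-like cells in the vesicle. The vesicle APs also include 335 cells without a regional name, at a median of 6088 UMIs. Neurons divided into pallial glutamatergic-like, septal glutamatergic-like, Cajal-Retzius (CR)-like (early reelin-secreting neurons) and GABAergic-like. Some neuron classes rest on 1 cluster, the smallest being 100 pallial glutamatergic-like neurons in the septal explants and 158 septal glutamatergic-like neurons in the vesicle. Levels are CPM, the UMIs of a gene as a share of all UMIs summed over the class and scaled to 1000000, with exact Poisson 95% intervals in parentheses. Ratios of summed levels have exact binomial 95% intervals, and shares of cells have Clopper-Pearson intervals. All intervals cover counting error only. APs were deeper than neurons, with medians of 14282 against 11861.5 UMIs per cell in the septal explants and 11026.5 against 6905 in the vesicle.

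Receptor transcripts were rare. They made up 8593 UMIs in the septal explants (0.0111% of all) and 133896 in the vesicle (0.0767%). AMPA subunits of the septal explants had 1911 UMIs, kainate subunits 2170, the GABA-B pair 2126 and GABA-A subunits 1679, while NMDA subunits had 269 and metabotropic receptors 308. In the vesicle the kainate subunits had 68651 UMIs, of which Grik2 gave 54993, followed by GABA-A subunits with 20078 and AMPA subunits with 16094. Metabotropic receptors had 5611, NMDA subunits 1968 and the GABA-B pair 6252. The rho subunits, known from the retina, had 9 and 78. At 0 UMIs were 9 genes in the septal explants (Gabra6, Gabrd, Gabrp, Gabrr1, Gabrr3, Grin1os, Grin2d, Grin3b and Grm6) and Gabrp alone in the vesicle. A further 20 and 7 genes were seen below 50 UMIs. For the septal explants they included Gabbr2, Gabra5, Gabrb1, Gabrb2, Gabrg1, Gabrg3, Gabrq, Gabrr2, Grid1, Grid2ip, Grik1, Grik3, Grin2a, Grin2c, Grm3, Grm4, Grm5 and Grm7. In the vesicle they were Gabra6, Gabrd, Gabrr1, Gabrr3, Grin1os, Grin2c and Grm6. Nearest to the minimum in the septal explants were Gria1 with 61 and Grm3 with 48 UMIs, and in the vesicle Grm2 with 64 and Gabrr3 with 7. The UMIs of a gene in the vesicle per UMI in the septal explants moved with the length of the gene, from a median of 3.24 for the 6 shortest of the 20 genes over the minimum in both (spans of 12988 to 88560 bases) through 9.77 for 8 genes of middle length to 29.3 for the 6 longest (409111 bases or more). Both libraries were made with Cell Ranger against mm10 by the submitters' processing notes, but with versions 2.1.1 and 7.1.0. Whether intronic reads were counted is not given in the sources used here. Levels are therefore compared within a library only, and the part of gene length in them was not tested.

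The first comparison asked which receptor genes differ between neurons and APs. A gene was called when its level differed at least 2-fold with the counting interval of the ratio on that side of 1. Of 20 receptor genes of the septal explants, 13 were higher in neurons and 3 lower, where 18.4% and 16.6% of all 13035 genes with 50 UMIs were called in those directions. In the vesicle 23 of 41 searched genes were higher and 4 lower, against 17.3% and 18.2% of 16627 genes. Grid2ip, which is not a receptor, is among the 41 here and below, and among the 23. The median log2 ratio of the receptor genes was 1.47 in the septal explants and 1.48 in the vesicle, against 0.05 and -0.06 over all genes. The 20 genes tested in both libraries were called in opposite directions in no case. Higher in both were 12, among them Gria1, Gria2, Gria4, Grik2, Grik4, Grin1, Grin2b, Grm2, Grm8 and Gabbr1, lower in both were Gabra4 and Gabre, and 4 were called in neither library (Gria3, Grik5, Grin3a and Gabra3). Gabra2 was called higher in the septal explants alone. Whether this differs between the libraries was not tested. How many of all genes were called alike in both libraries was not counted, here or in the comparisons below.

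**Figure D1:**
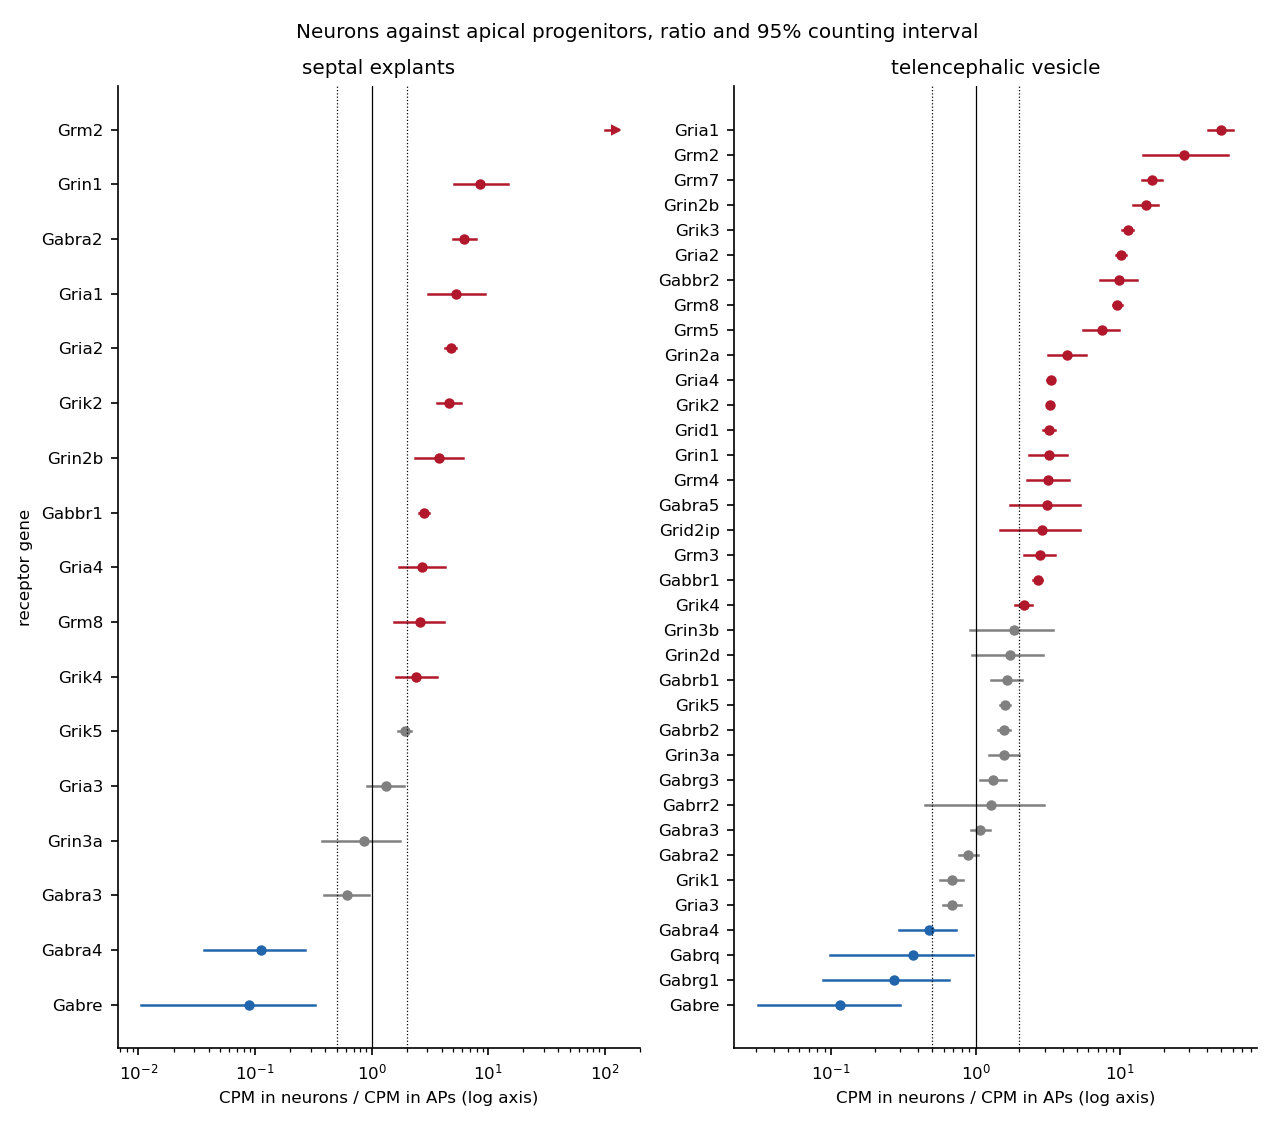
Ratio of the level in neurons to that in APs for 17 of the searched genes in the septal explants and 36 in the vesicle (Grid2ip included) with at least 50 UMIs, on a log axis, with 95% counting intervals. Red points were called higher and blue points lower, grey points were called neither, dotted lines mark 2-fold, and the arrowhead for Grm2 marks a lower bound. Grm2 is near the top in both libraries, and Gabre is lowest in both.

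Among the AMPA subunits, Gria2, whose edited protein keeps the channel closed to calcium, differed between neuron types and between AP regions. The septal explants had 168 CPM (95% interval 147 to 191) in pallial glutamatergic-like neurons, 58.3 (47.8 to 70.4) in septal glutamatergic-like, 50.9 (45.3 to 57.0) in CR-like and 38.2 (29.98 to 48.1) in GABAergic-like neurons. The pallial class stood above the other neuron classes, with intervals that did not overlap theirs. The 2 CR-like clusters differed, at 32.1 (25.6 to 39.8) and 65.7 (57.3 to 75.0) CPM of Gria2. APs differed among themselves as well, with 25.2 (23.2 to 27.3) CPM in pallial-like, 11.1 (7.41 to 15.9) in hem-like, 4.83 (3.81 to 6.02) in subpallial-like and 1.86 (1.13 to 2.87) in septal-like APs. The ratio of all neurons to all APs was 4.77 (4.29 to 5.29). In the vesicle it was 10.2 (9.42 to 10.97), with 126 CPM in pallial glutamatergic-like, 134 in septal glutamatergic-like, 102 in GABAergic-like and 31.2 in CR-like neurons. CR-like neurons were the lowest of the 4. There too pallial-like APs were the highest APs, at 19.4 (17.8 to 21.0) CPM, and hem-like APs the lowest, at 2.79 (2.16 to 3.53).

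Gria1, another AMPA subunit, was low in the APs of the vesicle and was 49.6 (40.8 to 60.7) times as high in neurons as in APs. Its level was 63.7 (56.9 to 71.2) CPM in GABAergic-like, 40.4 (30.7 to 52.1) in septal glutamatergic-like, 36.7 (31.2 to 42.8) in pallial glutamatergic-like and 16.3 (10.3 to 24.5) in CR-like neurons. GABAergic-like neurons were thus the highest class, but their 2 clusters differed, at 99.2 and 29.4 CPM. Gria1 of the septal explants had 29 UMIs in neurons and 26 in APs, a ratio of 5.33 (3.03 to 9.42). Gria4 was higher in neurons in both libraries, by 2.73 (1.71 to 4.29) and 3.31 (3.14 to 3.49). Its level in the vesicle was 219 (206 to 233) CPM in GABAergic-like and 190 (169 to 214) in septal glutamatergic-like neurons, whose intervals overlapped. Pallial glutamatergic-like neurons had 93.7 CPM and CR-like neurons 55.3. Gria3 was called in neither library. In the vesicle it measured 31.7 CPM in hem-like APs, 3.69 in BP-like cells and 16.2 over all neurons, and the BP-like cells were the lowest class. Pallial glutamatergic-like neurons of the septal explants had 11.1 CPM, and GABAergic-like neurons had no UMI of Gria3, where the floor of 3 counts is 1.57 CPM.

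**Figure D2:**
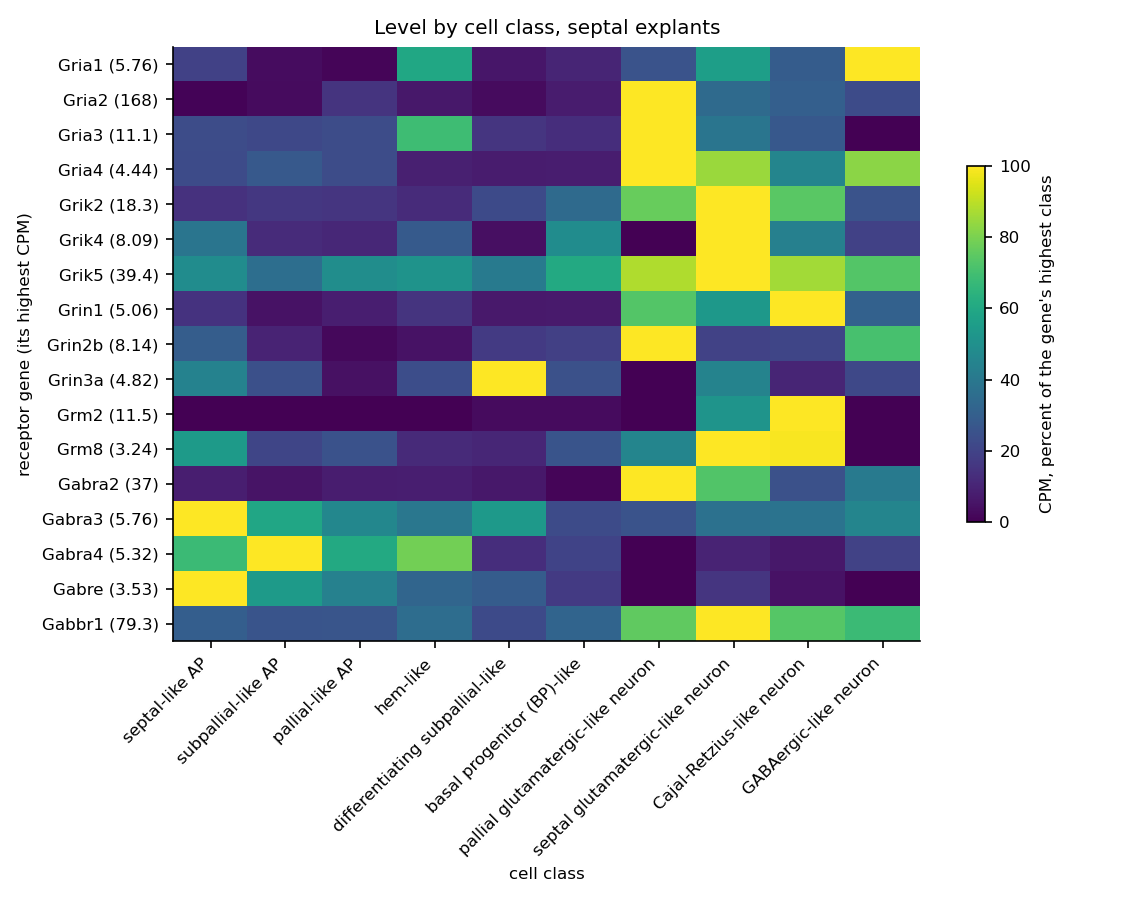
Level of 17 receptor genes with at least 50 UMIs in each cell class of the septal explants, as a percent of the gene's own highest class, whose CPM stands in parentheses. Rows are not comparable with each other. Most rows peak in the 4 neuron classes on the right, Gabra3, Gabra4 and Gabre peak in APs on the left, and Grin3a peaks in differentiating subpallial-like cells.

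Grik2, a pore-forming kainate subunit, was seen in most cells of the vesicle, with a UMI in 73.5% of APs and 83.8% of neurons. Of non-neural cells (blood, macrophages, endothelium and mesenchyme), which should have little of it, 23.4% had a UMI, at a median depth of 8993 UMIs. Septal glutamatergic-like neurons had the most. Its level was 1476 (1415 to 1539.9) CPM in septal glutamatergic-like, 1017 (965 to 1071) in CR-like, 885 (857 to 913) in pallial glutamatergic-like and 566 (546 to 588) in GABAergic-like neurons. BP-like cells, at 993 (970.0 to 1017) CPM, already stood at 3.88 (3.78 to 3.98) times the APs. In the septal explants Grik2 was 2.26 (1.62 to 3.11) times as high in BP-like cells and 4.62 (3.64 to 5.85) times as high in neurons as in APs. The 3 BP-like clusters there differed, at 8.89, 10.1 and 3.59 CPM, the last in the largest cluster of 316 cells. GABAergic-like neurons were again the lowest neurons, with 4.72 (2.16 to 8.95) CPM against 18.3 (12.7 to 25.6) in septal glutamatergic-like neurons.

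Grik3, another pore-forming kainate subunit, was highest among neurons in the class where Grik2 was lowest. In the vesicle it reached 223 (210.1 to 237) CPM in GABAergic-like neurons and 95.7 (88.1 to 104) in differentiating subpallial-like cells, the class between subpallial-like APs and GABAergic-like neurons. Pallial glutamatergic-like, septal glutamatergic-like and CR-like neurons had 10.6, 15.7 and 17.7 CPM, and the regional AP classes 6.59 to 10.9. Both GABAergic-like clusters were high, at 195 and 251 CPM. Grik3 of the septal explants fell under the minimum with 43 UMIs, 26 of them in the 167 GABAergic-like neurons and none in the other neuron classes.

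The kainate subunits Grik4 and Grik5 need a Grik1 to Grik3 partner to form channels. Grik4 was higher in BP-like cells than in APs in both libraries, 2.70 (1.74 to 4.11) and 2.63 (2.25 to 3.08) times, and 2.42 (1.60 to 3.60) and 2.16 (1.88 to 2.46) times as high in neurons. The 3 BP-like clusters of the septal explants differed, at 8.44, 4.77 and 1.35 CPM of Grik4, the last in the largest cluster of 316 cells. Grik5 was broad and stayed just under 2-fold, with neuron to AP ratios of 1.92 (1.70 to 2.17) and 1.59 (1.47 to 1.72). A UMI of it was found in 14 of 70 non-neural cells of the septal explants, against 23.6% of APs. Grik1 had 29 UMIs in the septal explants, and in the vesicle 27.4 CPM in septal glutamatergic-like neurons and 22.0 in subpallial-like APs.

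The delta subunit Grid1 was 3.22 (2.94 to 3.52) times as high in neurons of the vesicle, and highest in GABAergic-like neurons at 74.6 (67.2 to 82.6) CPM. Septal glutamatergic-like neurons followed with 55.4 (44.0 to 68.9), an interval that overlapped. The 2 GABAergic-like clusters differed, at 97.1 and 52.8 CPM. Grid1 of the septal explants had 14 UMIs.

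NMDA receptors need Grin1, the subunit that binds glycine, together with a Grin2 or Grin3 subunit. Grin1 was called higher in neurons in both libraries, 8.56 (5.08 to 14.8) times in the septal explants, from 24 UMIs in APs to 43 in neurons, and 3.20 (2.33 to 4.32) times in the vesicle. CR-like neurons had the highest level in both. In the vesicle it was 14.9 (9.22 to 22.8) CPM there, against 4.53 (2.77 to 6.99) in pallial glutamatergic-like, 2.42 (1.25 to 4.23) in GABAergic-like and 2.05 (0.423 to 6.000) in septal glutamatergic-like neurons. The levels in the septal explants were 5.06 (3.41 to 7.22) and 3.70 (1.201 to 8.63) CPM in CR-like and pallial glutamatergic-like neurons, whose intervals overlapped.

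Grin2b, the embryonic glutamate-binding subunit, had a ratio of 3.80 (2.37 to 6.06) in the septal explants and 14.99 (12.3 to 18.3) in the vesicle. In the vesicle the level of Grin2b was 41.1 CPM in septal glutamatergic-like, 19.97 in GABAergic-like, 16.3 in pallial glutamatergic-like and 4.26 in CR-like neurons. The order differed in the septal explants, where pallial glutamatergic-like neurons were highest at 8.14 (4.06 to 14.6) CPM. Septal glutamatergic-like neurons there had 1.62 (0.334 to 4.73) CPM from 3 UMIs, with overlapping intervals. Grin2a, better known from postnatal brain, was 4.29 (3.17 to 5.76) times as high in vesicle neurons as in APs, with 18.5 CPM in septal and 6.56 in pallial glutamatergic-like neurons and 1.61 in GABAergic-like. CR-like neurons had no UMI of it (floor 2.13 CPM). Grin3a, which lowers calcium flow through the channel, was called in neither library. In the vesicle GABAergic-like neurons were highest with 62 UMIs, and the level was 9.83 CPM in differentiating subpallial-like cells and 10.2 in septal-like APs, and under 1 in pallial-like APs (0.833) and pallial glutamatergic-like neurons (0.905). Grin2d and Grin3b had 149 and 108 UMIs in the vesicle and were not called. Grin2c had 4 UMIs in each library.

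**Figure D3:**
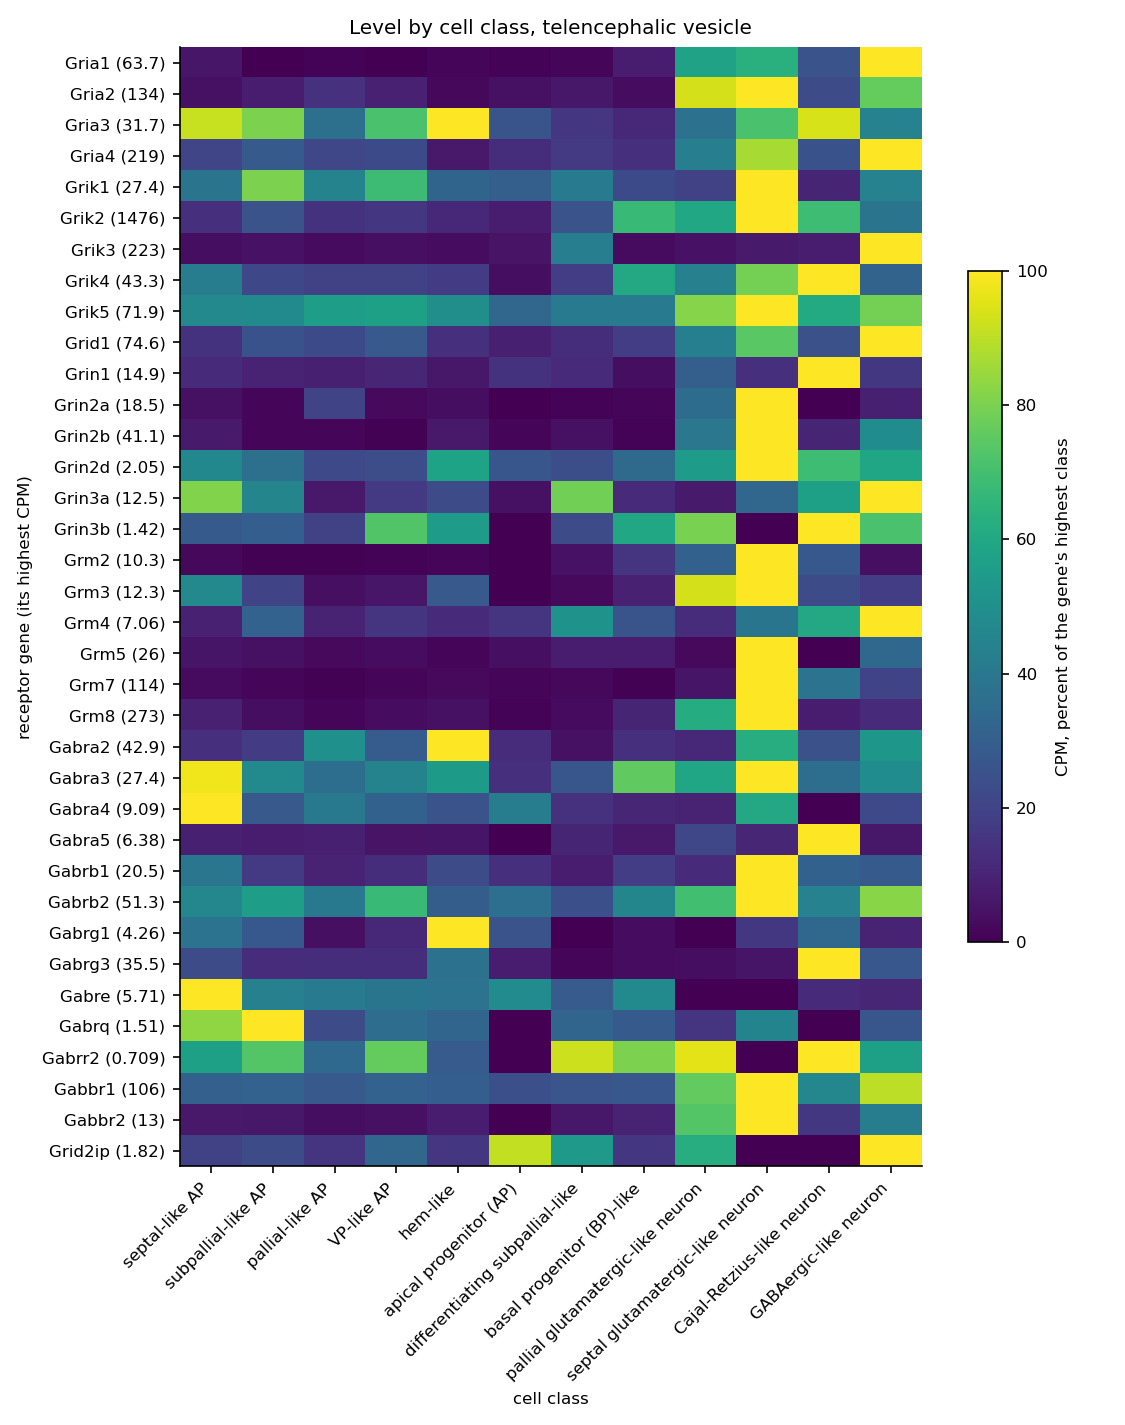
Level of 36 of the searched genes with at least 50 UMIs in each cell class of the telencephalic vesicle, as a percent of the gene's own highest class, whose CPM stands in parentheses. Rows are not comparable with each other. Grik3, Gria1, Grid1 and Gria4 peak in GABAergic-like neurons, while Grm7, Grm8 and Grm5 peak in septal glutamatergic-like neurons.

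Of the metabotropic receptors, Grm2, an autoreceptor that lowers release, had 79 UMIs in neurons and none in 3329 APs of the septal explants. This is at least 126-fold higher, against a floor of 3 counts over all APs. Its neurons were of 2 classes, CR-like with 11.46 (8.90 to 14.5) CPM and septal glutamatergic-like with 5.94 (2.96 to 10.6). Pallial glutamatergic-like and GABAergic-like neurons had none, where 3 counts would be 2.22 and 1.57 CPM. The 2 CR-like clusters differed, at 22.2 and 3.01 CPM. In the vesicle Grm2 was 27.7 (14.5 to 55.7) times as high in neurons, with 10.3 (5.75 to 16.9) CPM in septal glutamatergic-like, 3.17 (1.73 to 5.32) in pallial glutamatergic-like, 2.84 (0.773 to 7.26) in CR-like and 0.403 (0.0488 to 1.46) in GABAergic-like neurons.

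The 158 septal glutamatergic-like cells of the vesicle, 1 cluster, were the highest class for Grm7 at 114 (97.0 to 132) CPM, Grm8 at 273 (247 to 301) and Grm5 at 26.0 (18.4 to 35.7). Onecut3, Mab21l2 and Calb2 are among the leading genes of this cluster. Grm7 and Grm8 are presynaptic group III receptors and Grm5 is a group I receptor, which raises calcium. Neurons were 16.6 (14.1 to 19.6), 9.54 (8.86 to 10.3) and 7.44 (5.57 to 9.89) times as high as APs in these genes. In all, 11 of 41 genes were higher in this class than in the other neurons (3.23% of all genes) and 3 lower (2.66%), the latter including Grik3 and Gabrg3. In the septal glutamatergic-like neurons of the other library, 1 of 20 genes (Grik4) was called higher and 0 lower (3.21% and 4.3% of all genes).

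Grm8 also marked pallial glutamatergic-like neurons of the vesicle, at 169 (157 to 181) CPM, against 32.3 (27.5 to 37.7) in GABAergic-like and 21.3 (14.4 to 30.4) in CR-like neurons. Grm7 measured 43.3 CPM in CR-like, 23.2 in GABAergic-like and 6.34 in pallial glutamatergic-like neurons. Grm3 and Grm4 were higher in vesicle neurons by 2.79 (2.17 to 3.56) and 3.19 (2.27 to 4.41). Grm3 had 11.54 CPM in pallial glutamatergic-like and 2.22 in GABAergic-like neurons, and Grm4 0.905 and 7.06, the opposite order. Grm6, known from retinal bipolar cells, had 0 and 1 UMIs.

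Among the GABA-A subunits, Gabra5 overlaps a gene of the opposite strand, and its count is uncertain where the counting setting is not stated. Gabra5 was highest in CR-like neurons of the vesicle with 6.38 (2.92 to 12.1) CPM, at 93 UMIs in all. The next class, pallial glutamatergic-like neurons, had 1.36 (0.498 to 2.96), an interval that overlapped. Gabrg3 was also highest in CR-like neurons of the vesicle, with 35.5 (26.3 to 46.7) CPM against 13.2 (11.8 to 14.8) in hem-like APs and 1.36 (0.498 to 2.96) in pallial glutamatergic-like neurons.

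The alpha subunits behaved unlike one another. Gabra2 was 6.20 (4.95 to 7.78) times as high in neurons of the septal explants, with 37.0 CPM in pallial glutamatergic-like, 27.0 in septal glutamatergic-like, 15.2 in GABAergic-like and 9.10 in CR-like neurons, and 1.92 to 3.06 in the AP classes. In the vesicle its ratio was 0.892 (0.765 to 1.04). There the hem-like APs had the most, 42.9 (40.4 to 45.6) CPM, followed by septal glutamatergic-like neurons with 26.7 (19.0 to 36.5), GABAergic-like neurons with 22.8 (18.8 to 27.4) and pallial-like APs with 21.5 (19.9 to 23.3). Septal-like APs had 5.81 (4.797 to 6.97) and pallial glutamatergic-like neurons 4.98 (3.12 to 7.54). Gabra3 was called in neither library, with ratios of 0.620 (0.387 to 0.951) and 1.08 (0.924 to 1.25). Gabrb1 and Gabrb2 were not called in the vesicle, with ratios of 1.64 (1.28 to 2.09) and 1.58 (1.43 to 1.74).

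A small set of GABA-A subunits lay on the side of the progenitors. Gabra4 had 211 UMIs in APs and 5 in neurons of the septal explants, 8.83 (3.73 to 27.5) times lower in neurons, and was 2.09 (1.37 to 3.37) times lower in the vesicle. Septal-like APs of the vesicle had the most, 9.09 (7.81 to 10.5) CPM. Septal glutamatergic-like neurons came next with 5.48 (2.36 to 10.8) from 8 UMIs, above the other AP classes. In the annotation the start of Gabra4 overlaps that of Gabrb1, which runs the other way (chr5:71569749-71658308 and chr5:71658113-72149037, GRCm38). Gabre, the epsilon subunit, had 108 and 2 UMIs in the septal explants, 11.3 (3.05 to 94.5) times lower in neurons, and 384 and 4 in the vesicle, 8.67 (3.36 to 32.0) times lower. A UMI of Gabre was found in 3.21% of APs and 1.43% of non-neural cells of the septal explants, and in 4.99% and 1.505% in the vesicle. Gabrg1 and Gabrq were lower in vesicle neurons by 3.65 (1.54 to 11.4) and 2.73 (1.04 to 10.2) times, from 5 and 4 UMIs in neurons. Gabrg1 was highest in hem-like APs, at 4.26 (3.48 to 5.17) CPM. Gabre (chrX:72255999-72274803), Gabra3 (chrX:72432681-72656848) and Gabrq (chrX:72825178-72842602) lie close together on the X chromosome.

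The GABA-B subunits were both higher in neurons. Gabbr1 was seen in 48.3% of neurons, 28.6% of APs and 15.7% of non-neural cells of the septal explants, with neuron to AP ratios of 2.82 (2.56 to 3.102) and, in the vesicle, 2.69 (2.51 to 2.87). Gabbr2 had 9 UMIs in the septal explants. In the vesicle it was 9.78 (7.29 to 13.1) times as high in neurons, at 13.0 CPM in septal glutamatergic-like, 9.51 in pallial glutamatergic-like, 5.45 in GABAergic-like and 2.13 in CR-like neurons.

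**Figure D4:**
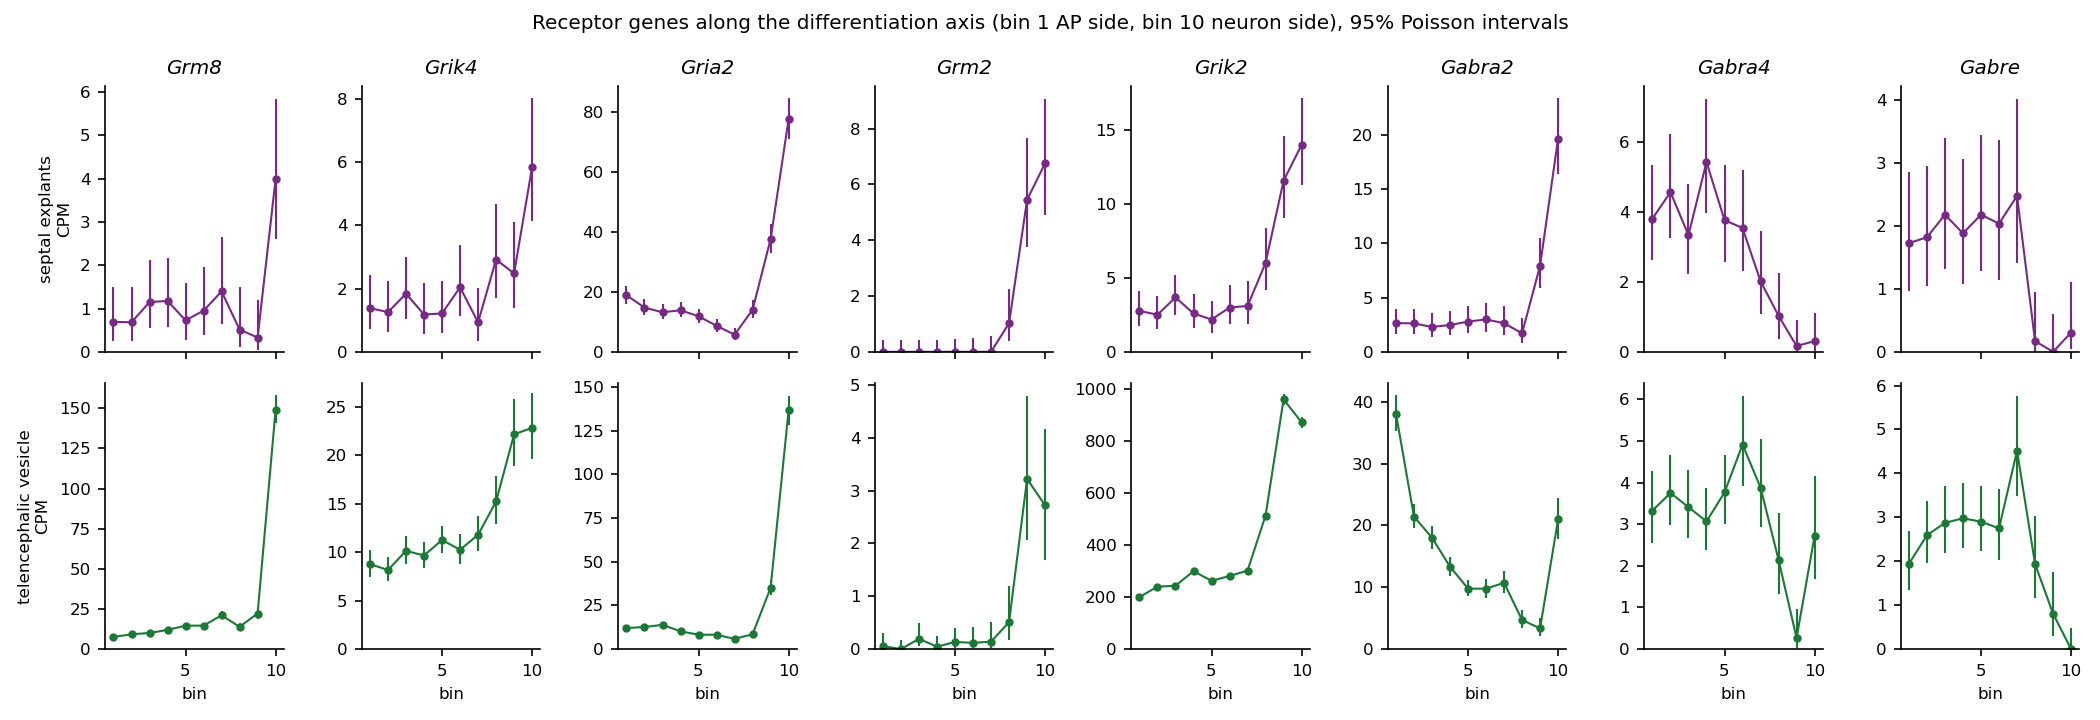
Level of 8 receptor genes in 10 equal groups of neural cells ordered from AP-like to neuron-like by 11 neuronal and 9 AP marker genes, with Poisson 95% intervals. Grm2 is highest in the last 2 groups, Gria2 is lowest in group 7, and Gabre stays under 1 CPM in the last 2 groups.

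Ordering cells by neuronal and AP markers instead of by cluster gave 10 equal groups, of which the first is most like APs and the last most like neurons. Of the receptor genes with 50 UMIs, 17 of 20 in the septal explants and 34 of 41 in the vesicle were highest in the last 4 of 10 groups, as were 55.9% and 54.8% of all genes. Group 7, the first of these, is still on the side of the APs by its median marker score, and Gabre was highest there in both. In the last 2 groups 15 and 32 of the receptor genes were highest, against 42% and 41.3% of all genes. Grm2 had no UMI in the first 7 groups of the septal explants and measured 1.03, 5.45 and 6.76 CPM in the last 3. In the vesicle its last 3 groups had 0.511, 3.22 and 2.72 CPM. Gria2 had a low point between progenitors and neurons, with 18.9 CPM in group 1, 5.73 in group 7 and 77.7 in group 10 of the septal explants, and 12.04, 5.85 and 137 in the vesicle. Grik2 in the vesicle was higher in group 9 (959.8 CPM) than in group 10 (872). Gabra2 was high at both ends of the vesicle series, at 38.1 CPM in group 1, 3.35 in group 9 and 21.0 in group 10. The groups mix AP regions whose median marker scores differ, with -3.17 in hem-like and -2.49 in subpallial-like APs of the vesicle. Region and position in the series were not separated.

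Some receptor genes differed between AP regions, though not in every region clearly more often than all genes did. Septal-like APs, defined by Fgf8, Fgf17 and related genes, were higher than other APs in 6 of 20 receptor genes in the septal explants (4.54% of all genes) and 11 of 41 in the vesicle (4.41%). The 6 of the septal explants, Gabre, Grin3a, Grm8, Grin2b, Grik4 and Gria1, were all among the 11 of the vesicle. The same overlap over all genes was not counted. Gria1 was 3.34 (1.41 to 7.79) and 8.49 (5.86 to 12.4) times as high in septal-like APs, and Grin2b 5.63 (2.97 to 10.9) and 3.05 (2.20 to 4.21) times. The other 5 in the vesicle included Grm3, Gabra3, Gabra4 and Gabrb1. Lower were 1 (Gria2; 2.19% of all genes) and 3 (among them Gabra2 and Grm4; 3.17%). Pallial-like APs were lower in 4 of 20 genes of the septal explants (7.37% of all genes) and 12 of 41 of the vesicle (8.14%). They were higher in 1 (Gria2; 1.99%) and 3 (among them Gria2 and Grin2a; 1.81%). Hem-like APs were higher in 2 of 20 (Gria1 and Gria3; 8.35%) and 4 of 41 (Gabra2, Gabrg1, Gabrg3 and Grin2b; 6.44%). They were lower in 0 (2.59%) and 4 (among them Gria2, Gria4 and Grm5; 4.15%). The hem-like higher calls, 10% and 9.76% of the receptor genes, were thus near the shares of all genes. Subpallial-like APs were lower in 2 of 20 (Gria1 and Gria2; 4.3%) and 4 of 41 (Gria1, Grin2a, Grin2b and Gabra2; 5.85%). They were higher in 0 (1.7%) and 3 (among them Grm4 and Gabrq; 3.02%). In the septal explants the calls between AP regions rest on few UMIs, 12 to 38 in septal-like APs for the 6 higher genes.

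BP-like cells were not simply between APs and neurons. Against APs, 7 of 20 genes were called in the septal explants, 3 higher and 4 lower, where 20.7% of all genes were called in either direction and 9.16% higher. In the vesicle 20 of 41 were called, 7 higher and 13 lower, against 15.9% in either direction and 6.85% higher. Higher in both were Grik2 and Grik4 among others, and lower in both Gabra2 and Gabra4. In the vesicle Gria2 was 2.30 (1.62 to 3.38) and Gria3 6.39 (4.35 to 9.80) times lower in BP-like cells than in APs, although Gria2 was higher in neurons.

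The next comparison set GABAergic-like against pallial glutamatergic-like neurons, classes that make different transmitters. They also differ in region, subpallial against pallial, so transmitter and region cannot be told apart here. In the septal explants, where the classes held 167 and 100 cells, 0 of 20 receptor genes were called higher in GABAergic-like neurons (5.35% of all genes) and 5 lower (6.09%). Among the lower genes were Gria2, 4.39 (3.36 to 5.80) times, Grik2, 2.98 (1.28 to 7.48) times, Gabra2, 2.43 (1.51 to 3.99) times, and Gria3, at least 7.06-fold lower against a floor of 3 counts. In the vesicle, with 649 and 564 cells, 12 of 41 were higher (4.99%) and 5 lower (4.32%). Grik3 was 21.0 (15.7 to 28.7) times as high in GABAergic-like neurons, Grin3a 13.8 (5.13 to 52.3), Grm5 12.8 (4.09 to 64.4) and Grm4 7.80 (2.79 to 30.2) times. Other higher genes were Gabra2, Gabrb1, Gabrg3, Gria4, Grid1, Grik1 and Grm7, with ratios of 2.23 to 7.13. All 5 lower genes were glutamate receptors. Grm2 was 7.86 (1.80 to 71.2) times lower, Grm8 5.23 (4.40 to 6.24), Grm3 5.20 (2.68 to 11.1) and Grin2a 4.07 (1.81 to 10.3) times.

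Gabra2 was thus called on opposite sides in the libraries, lower in GABAergic-like neurons of the septal explants and 4.58 (2.88 to 7.59) times as high in those of the vesicle. Gria2 was lower in GABAergic-like neurons of both libraries, but in the vesicle only by 1.23 (1.09 to 1.39) times, short of 2-fold. Gabbr1 and Grik5 differed by less than 2-fold in both. Their ratios in the septal explants were 0.901 (0.667 to 1.22) and 0.829 (0.551 to 1.25), and in the vesicle 1.18 (1.03 to 1.36) and 0.966 (0.814 to 1.15). Set against all glutamatergic-like neurons, CR-like and septal ones included, the GABAergic-like neurons of the vesicle were higher in 7 (3.52% of all genes) and lower in 7 (6.04%), and Grm5, Grm7, Gabrb1, Gabrg3 and Grik1 were no longer called higher. The GABAergic-like neurons of the explants were higher in 1 (Gria1; 2.61%) and lower in 4 (among them Gria3, Grik2 and Grm2; 7.33%). The 2 GABAergic-like clusters of the vesicle differed in Gabrg3 (2.05 and 17.1 CPM), Gabra2 (32.8 and 13.1) and Grik2 (342 and 784).

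**Figure D5:**
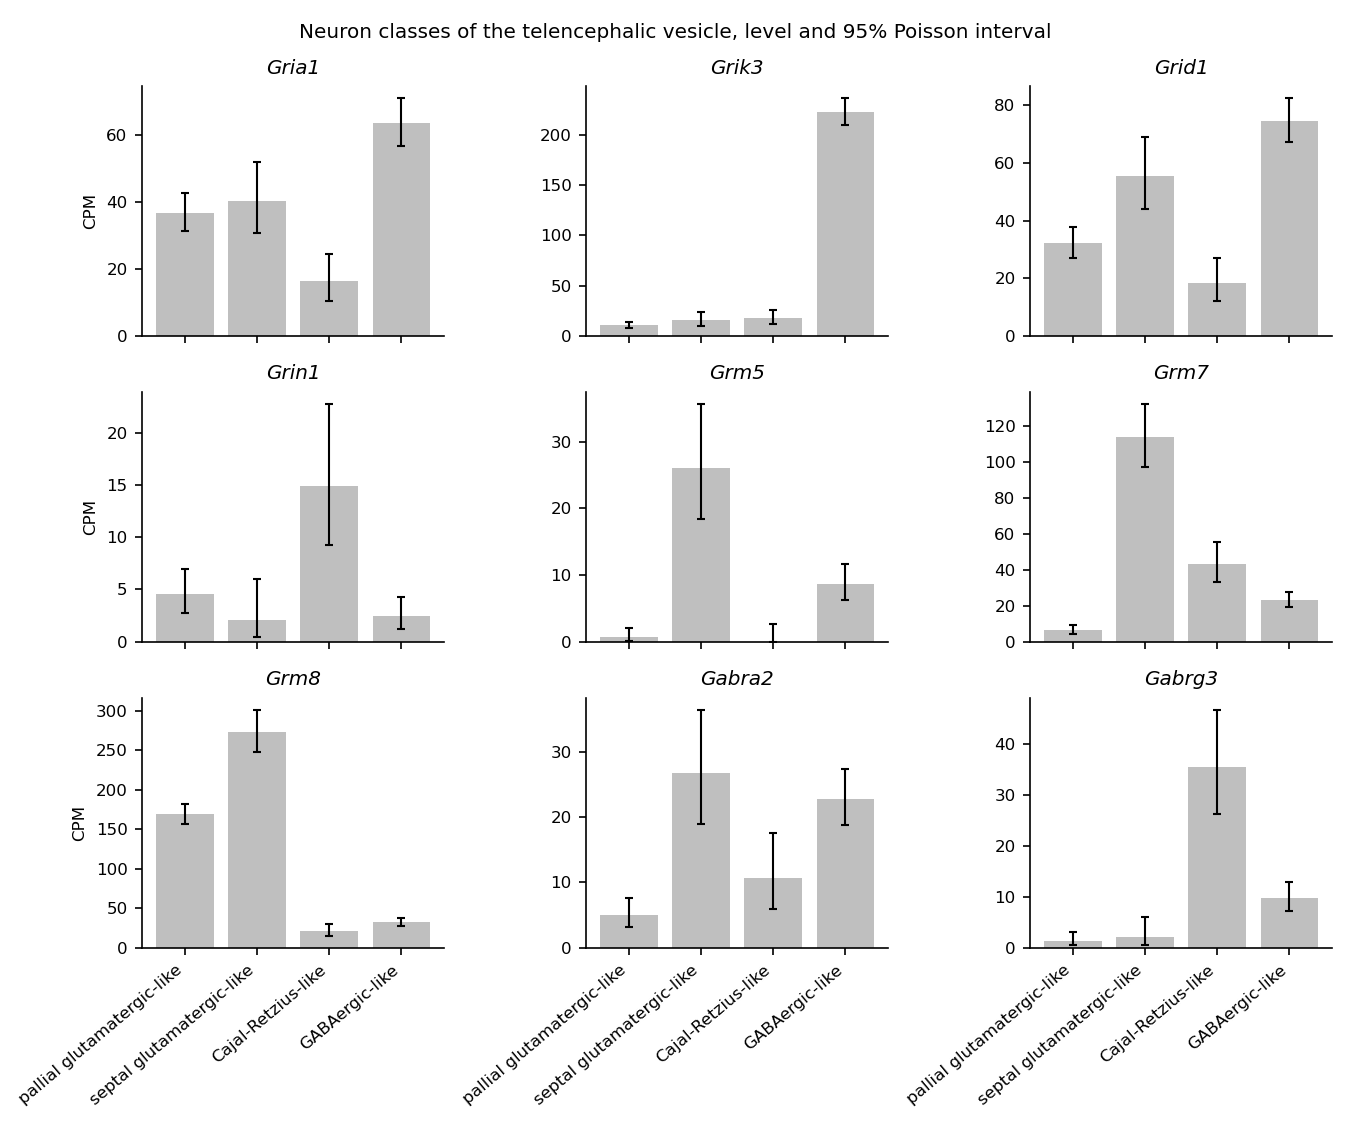
Level of 9 receptor genes in the 4 neuron classes of the telencephalic vesicle, as CPM with Poisson 95% intervals on linear axes that start at 0. Grik3 stands out in GABAergic-like neurons, Grm5 and Grm7 in septal glutamatergic-like neurons, and Grin1 and Gabrg3 in CR-like neurons.

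CR-like neurons were compared with the other neurons. In the vesicle 5 of 41 genes were higher in them (Grin1, Gabra5, Gabrg3, Grik4 and Gria3; 8.19% of all genes) and 13 lower (4.53%). Among the lower genes were Gria1, Gria2, Gria4, Grik3, Grin2b and Grm8. In the septal explants 1 of 20 was higher (Grm2; 5.29%) and 2 lower (Gabra2 and Grin2b; 2.75%). Median marker scores of the vesicle neurons were 2.51 in CR-like, 3.68 in GABAergic-like, 3.81 in pallial glutamatergic-like and 4.31 in septal glutamatergic-like cells. Class and position in the marker series were not separated, here or in the comparison of septal glutamatergic-like with other neurons.

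Few cells held transcripts for a whole receptor. At least 1 UMI each of an alpha, a beta and a gamma subunit was found in 15 of 870 (1.72%, 0.968 to 2.83) neurons and 1 of 3329 (0.0300%, 0.000761 to 0.167) APs of the septal explants, and in 113 of 1557 (7.26%, 6.02 to 8.66) neurons and 321 of 6920 (4.64%, 4.16 to 5.16) APs of the vesicle. Non-neural cells had 3 of 997 (0.301%, 0.0621 to 0.877) in the vesicle. When vesicle cells were thinned to 3500 UMIs each, the shares became 29 of 1527 (1.90%, 1.28 to 2.72) neurons and 2 of 6710 (0.0298%, 0.00361 to 0.108) APs, so that the AP share was no longer near that of neurons. At 8000 UMIs in the septal explants they were 2 of 826 (0.242%, 0.0293 to 0.872) neurons and 0 of 3143 APs. Taken singly and thinned, a beta subunit was found in 746 of 1527 (48.9%, 46.3 to 51.4) vesicle neurons and 1047 of 6710 (15.6%, 14.7 to 16.5) APs, a gamma subunit in 287 of 1527 (18.8%, 16.9 to 20.8) and 164 of 6710 (2.44%, 2.09 to 2.84), and an alpha subunit in 119 of 1527 (7.79%, 6.50 to 9.25) and 656 of 6710 (9.78%, 9.08 to 10.5). Beta and gamma subunits were thus more frequent in neurons than in APs of the vesicle, and alpha subunits were not. Grin1 with another NMDA subunit was found in 3 of 870 (0.345%, 0.0712 to 1.004) and 9 of 1557 (0.578%, 0.265 to 1.09) neurons. A cell without a UMI is not shown to lack the transcript at these depths.

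Genes for proteins that carry, anchor and tune these receptors were listed apart, together with transmitter genes. The list held 73 genes, of which 63 and 71 had 50 UMIs. Higher in neurons were 35 and 44, and lower 2 and 4. Over all genes, 18.4% and 17.3% were called higher and 16.6% and 18.2% lower. The totals of higher genes include 5 transmitter genes in each library. Most of these also served to name the neuron classes, so their calls were fixed in advance. The other genes of the list were not kept out of the clustering, so their calls are not independent of the classes. Of 13 auxiliary subunits of AMPA and kainate receptors in the septal explants, 6 were higher in neurons and none lower, and of 16 in the vesicle, 10 were higher and 1 lower. Cacng2 (stargazin, which brings AMPA receptors to the surface) was 280.3 (94.4 to 1372) and 139.8 (94.4 to 215) times as high in neurons, and Cnih2 (cornichon, an AMPA receptor export factor) 10.4 (9.91 to 10.9) and 10.6 (10.1 to 11.2) times. Cnih3 was the lower gene of the vesicle, at a ratio of 0.377 (0.232 to 0.581). Of the excitatory scaffold and trafficking genes, 11 of 22 and 15 of 25 were higher, among them Dlg4 (PSD-95) at 5.26 (4.63 to 5.98) and 3.33 (3.11 to 3.57), and Dlg1 (SAP97) was lower in the vesicle at 0.449 (0.423 to 0.475). The cerebellins Cbln1, Cbln2 and Cbln4, ligands of the delta receptors, were all higher in neurons of both libraries. Cbln2 had ratios of 213 (130.0 to 374) and 56.0 (42.9 to 74.1), and against pallial glutamatergic-like neurons it was lower in GABAergic-like neurons, at 0.0221 (0.00262 to 0.0833) and 0.290 (0.217 to 0.384) times their level.

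Of 15 GABA-A scaffold and trafficking genes, 9 and 8 were higher in neurons and none lower. Gphn (gephyrin, the inhibitory scaffold) was not called, at 1.27 (1.09 to 1.46) and 0.996 (0.954 to 1.04), while Nlgn2, which recruits it, was higher at 4.46 (3.90 to 5.11) and 3.92 (3.62 to 4.24). Of the GABA-B auxiliary genes, Kctd8 and Kctd12 were higher and Kctd12b lower in both libraries, and Kctd16 was higher in the vesicle. In the vesicle Kctd16 was 39.5 (13.2 to 194) times as high in GABAergic-like as in pallial glutamatergic-like neurons. Of the chloride transporters that set the direction of GABA currents, Slc12a5 (KCC2, which exports chloride) was higher in vesicle neurons at 2.65 (2.11 to 3.30), and Slc12a2 (NKCC1, which imports it) was not called, at 0.770 (0.580 to 1.01) and 0.559 (0.494 to 0.630). Of the NMDA co-agonist genes, the glycine transporter Slc6a9 was lower in neurons of both libraries, at 0.226 (0.0893 to 0.477) and 0.253 (0.115 to 0.486). The transmitter genes Gad1, Gad2, Slc32a1, Slc17a6 and Slc17a7 were higher in neurons in both libraries, but Gad1, Gad2, Slc32a1 and Slc17a6 also served to name the neuron classes.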

How the data were processed

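The authors deposited raw counts for both libraries, as UMIs per gene and barcode without normalisation. They were made with Cell Ranger, version 2.1.1 for the septal explants (Chromium 3' kit v2, about 10000 cells loaded) and 7.1.0 for the telencephalic vesicle (kit v3.1, about 20000 cells), with mm10 named for both in the submitters' processing notes. The study gives E11.5-E12 for the vesicle and the labels E12.

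Barcodes with a mitochondrial share over 3 median absolute deviations were left out (Python 3, scanpy). Doublets were called with Scrublet at 0.8% per 1000 barcodes, which marked 60 and 713. Cells were scaled to 10000 UMIs, and 2000 variable genes gave 30 components, 15 neighbours and Leiden clusters at resolution 1.5. Receptor genes, cell cycle genes, Xist, Tsix, Y-linked genes and reporter genes were left out of the variable genes. Mitochondrial genes were not. Clusters were named from marker lists with at least 3 markers. After the clusters were seen, clusters under 1/3 of the library's median UMIs stayed unnamed, subpallial-like clusters with a median axis above -1 were set apart as differentiating and left out of the APs, and 37 cells with at least 4 endothelial markers were split off. Unnamed clusters held 146 and 855 cells.

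Levels were computed from summed counts as CPM, with exact 95% intervals. The call rule, at least 2-fold with the interval on one side of 1, was run on simulated sums with counting error only, as the intervals assume. Spread between cells, clusters and embryos was not simulated, so the run does not bear on it. Genes named with values follow a rule: the 8 highest and 4 lowest neuron to AP ratios, the 5 highest and 5 lowest GABAergic-like to pallial glutamatergic-like ratios with the interval on one side of 1, and genes at least 3 times higher in 1 class than in any other. This gave 26 genes, some of which are not reported here. Other receptor genes are named by family and were chosen after their values were seen. The receptor genes, marker lists and partner lists were chosen with earlier results of these data known. Gene spans come from GENCODE M21. Alternatives are under the dependence on processing.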

Additional observations from a re-analysis of the deposited data

Results flagged for a closer look

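Gabra2 was called in opposite directions in the libraries when GABAergic-like neurons were set against pallial glutamatergic-like neurons. In the septal explants it had 29 UMIs in GABAergic-like and 50 in pallial glutamatergic-like neurons, a ratio of 0.411 (0.251 to 0.662), and in the telencephalic vesicle 113 and 22, a ratio of 4.58 (2.88 to 7.59). The difference between the libraries was not tested, since each has 1 library. Against all glutamatergic-like neurons the ratios were 0.901 (0.584 to 1.35) and 2.19 (1.62 to 2.96), so that the septal call was lost and the vesicle call kept its direction. The pallial class of the septal explants is 1 cluster of 100 cells. Library, dissection, stage and counting version all differ between the libraries and cannot be told apart.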

How the results depend on the processing

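Of 168 alternative values of the main counts and shares, 149 stayed within 1.5 times the main count, or within the counting interval of a share, and 19 moved. A reversal was defined only for ratios, not for these counts and shares. Of 447 alternative ratios of the named genes, 83 lay outside the main counting interval and none changed direction. Calls of single genes that were lost were not counted. In the septal explants a minimum of 20 UMIs left 31 receptor genes and one of 200 left 10, in place of 20. At 200 UMIs, 6 were higher and 1 lower in neurons. Against pallial glutamatergic-like neurons, 1 gene was called higher in GABAergic-like neurons with at least 1000 genes per cell, at Leiden resolution 2.5, at a minimum of 20 UMIs and against all glutamatergic-like neurons (an alternative chosen after seeing the data), and 3 were lower at 3-fold. In the vesicle 7 were higher against all glutamatergic-like neurons and 8 lower at 1.5-fold. Genes lower in vesicle neurons numbered 2 with all deposited barcodes, with doublets kept, at 3-fold and in thinned cells, where the cause was not tested beyond the stricter fold and the lower depth. Neurons with alpha, beta and gamma subunits fell to 0.230% and 1.09% with at least 2 UMIs of each and to 0.242% and 1.90% in thinned cells. With all deposited barcodes, at Leiden resolution 0.8 and with cell cycle genes kept, the vesicle had no pallial glutamatergic-like class, and that comparison gave no value. Leaving out hem-like clusters from the APs and counting BP-like clusters as neurons were also chosen after seeing the data. No paired analysis was possible because each condition has 1 library. No library could be left out for the same reason. Receptor genes of the septal explants had 8593 UMIs in all, and those called higher in septal-like APs had 12 to 38 there.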

Other observations

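Some receptor genes were seen in cells that are not of the nervous system. In the vesicle Gria3 measured 109 (91.8 to 129.5) CPM in the 69 macrophage-like cells, from 135 UMIs in 27.5% of them, and 37.7 (28.3 to 49.4) in the 37 endothelial-like cells, against 31.7 in hem-like APs, the highest neural class. The 491 mesenchyme-like cells had 17.0 (14.1 to 20.4) CPM of Gria3 and 49.6 (44.5 to 55.2) of Grm7. Grm7 was at 30.2 (27.2 to 33.5) CPM over all neurons. Endothelial-like cells had 28.5 (20.4 to 38.8) CPM of Gabra2 and 5.70 (2.46 to 11.2) of Gabrg1, from 8 UMIs. Hem-like APs, the highest neural class for both genes, had 42.9 and 4.26 CPM. The endothelial-like cells were split off by their markers and had a median of 31569 UMIs, against 11026.5 in APs. Whether transcripts of APs were mixed into them was not tested.

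The CR-like neurons of the septal explants held 2 clusters of 218 and 244 cells. Grm2 measured 22.2 CPM in the first and 3.01 in the second, with intervals that did not overlap. The first cluster is led by Ccno, Trp73 and Mcidas and the second by Tfap2e, Calb2 and Cbln2.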
